A study of Homo sapiens with 15 samples.

Results

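The genes described here mostly encode the motors, scaffolds and subunits of the microtubule system: kinesins, CEP centrosomal proteins, CENP centromere and kinetochore proteins, cytoplasmic dynein chains, and alpha, beta and gamma tubulins with their complex partners. They were chosen by name, as every protein-coding row whose symbol starts with KIF and a number or C, CEP and a number, CENP and a letter, DYNC, DYNL, TUBA, TUBB, TUBG or TUBE. The rule found 66 of the 11230 rows in the authors' table, of 7447 protein-coding rows: 22 kinesins, 17 CEP genes, 9 CENP genes, 8 cytoplasmic dynein genes and 10 tubulin genes. Families were set by symbol alone, so a member need not act at the structure its family is named for. CENPBD1, counted among the CENP genes, is the 1 member whose symbol was not found among RefSeq protein-coding genes.

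The study activated transcription of long non-coding RNAs, called TrEx, in HEK293FT cells, a transfectable human embryonic kidney line, and sequenced polyA RNA. Per the labels, all cells, controls included, received dCas9-VP64 and an MS2-p65-HSF1 activator with a pool of guide RNAs. The 4 groups trex0108, trex4039, trex5008 and trex8168 received 5 guides placed 50 to 450 bp upstream of the start of 1 TrEx RNA, and the control group received non-targeting guides. Selection with 2 ug/mL puromycin began at 24 hours and RNA was collected at 48 hours, with 3 libraries per group, described as biological triplicates. HEK293FT is 1 cell line, so the 3 libraries of a group measure repeats in the same line. For 2 groups the titles and target labels are crossed: TrEx5008 is the target label of the trex8168 libraries, and TrEx8168 that of the trex5008 libraries. The groups are named here by their titles, and which target each received was not settled.

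Microtubules are polymers of alpha and beta tubulin that grow from gamma-tubulin rings at the centrosome. Most kinesins walk toward the growing plus end and carry cargo or, in mitosis, move and shorten spindle fibres, whereas cytoplasmic dynein walks toward the minus end. CEP proteins build the centriole and its matrix, and CENP proteins join the centromere to spindle microtubules. Many of these genes are transcribed mainly in the late phases of the cell cycle, and others are used mainly by neurons or cilia.

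A value called a group mean below is the authors' mean normalised count over the 3 libraries of a group, without a spread. A member is called higher or lower where the adjusted p of its log2 fold change against control was under 0.05 in the authors' deposited table. Every row of that table passed 0.1 in 1 or more comparisons, so each listed member had to stand out somewhere. Of 152 RefSeq protein-coding genes with such names, 87 were not among the listed rows and were not analysed here. The comparisons share the 3 control libraries, so they are not independent of each other. The loci of 27 members overlap another listed row, and without a stated strand setting the reads of overlapping genes cannot be told apart. The loci of 8 members (DYNLL2, KIF18A, KIF12, TUBB, DYNLT1, KIF20B, TUBG2 and DYNLT3) are over 2 times as long as the RefSeq gene. Those of CENPM and CEP63 have under 0.5 of its length. What else the long loci count was not tested. Of 6 markers of the HEK293 line, 5 were listed, against 1 of 9 markers of neurons, 2 of 5 of fibroblasts and 0 of 4 of blood. Listing depends on a change between groups, so an unlisted marker gives no level and these counts do not show cell identity. The strongest row of each comparison stood at 5.23 for trex0108, 3.75 for trex4039, 5.56 for trex5008 and 4.23 for trex8168 (log2, the authors' deposited table), and no member lay within 500 kb of any of these rows.

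KIF18A and KIF18B are shown in sequence because they are close relatives that moved in opposite directions and differ in base composition, the feature that went with direction across the members. Both are mitotic kinesins: KIF18A dampens the swings of chromosomes on the spindle, and KIF18B shortens astral microtubules. The first 150 coding bases of the GENCODE principal transcripts are given 5′ to 3′, with the start codon in capitals.
KIF18A: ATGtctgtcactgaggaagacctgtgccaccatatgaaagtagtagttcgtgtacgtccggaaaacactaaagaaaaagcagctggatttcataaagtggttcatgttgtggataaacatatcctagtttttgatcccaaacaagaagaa
KIF18B: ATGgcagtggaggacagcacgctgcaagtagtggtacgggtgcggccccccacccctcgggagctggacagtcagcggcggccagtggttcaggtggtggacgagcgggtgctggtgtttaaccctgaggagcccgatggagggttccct
Of these 150 bases, 59 are G or C in KIF18A and 99 in KIF18B. Over the whole transcript, GC content was 37.0% in KIF18A (3568 bases, chromosome 11) and 62.4% in KIF18B (2745 bases, chromosome 17). At the third codon position 30.7% of codons in KIF18A and 74.3% in KIF18B end in G or C.

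Their promoters were closer in base composition, and each held both elements searched. The stretch from 250 bases before to 30 bases after the RefSeq start site (GRCh38.p14, minus strand) is given for each, with the cell-cycle homology element TTTGAA and the CCAAT box in capitals. Both strands were searched, and the 2 motifs do not overlap here.
KIF18A promoter, chr11:28108127-28108406: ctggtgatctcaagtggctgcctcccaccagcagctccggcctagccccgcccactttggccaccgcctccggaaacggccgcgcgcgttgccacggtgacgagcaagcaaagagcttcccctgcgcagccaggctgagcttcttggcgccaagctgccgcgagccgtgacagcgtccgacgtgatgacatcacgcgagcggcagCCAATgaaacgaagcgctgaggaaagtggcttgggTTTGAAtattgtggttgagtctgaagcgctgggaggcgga
KIF18B promoter, chr17:44947744-44948023: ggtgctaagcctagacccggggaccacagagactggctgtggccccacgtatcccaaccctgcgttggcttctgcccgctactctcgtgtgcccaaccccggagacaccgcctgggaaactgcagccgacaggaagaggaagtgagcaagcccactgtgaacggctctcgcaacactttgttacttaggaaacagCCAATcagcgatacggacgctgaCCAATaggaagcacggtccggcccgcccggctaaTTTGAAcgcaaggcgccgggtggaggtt
KIF18A has 1 TTTGAA before the start site and 1 CCAAT, while KIF18B has 1 TTTGAA just after the start site and 2 CCAAT. GC content of the printed stretch was 63.6% for KIF18A and 60.7% for KIF18B. Of 52 members with a RefSeq promoter, 16 (30.8%) held TTTGAA within the full window of 250 bases before to 50 after the start, against 1923 of 15843 protein-coding promoters (12.1%). The CCAAT box was in 26 of the 52 (50.0%), against 5760 of 15843 (36.4%). Among the 8 listed mitotic kinesins, 5 held TTTGAA and 7 held CCAAT. A match is a description of the letters in this window and not of a bound site.

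Set per kilobase of transcript, the members spanned a wide range of levels. TUBA1B was highest, with an authors' mean over all 15 libraries equal to 36508 normalised counts per kilobase, and the row named CENPM was lowest with 17.0. Per kilobase the family medians were 3366 for tubulins, 794 for dynein chains, 641 for CENP genes, 427 for kinesins and 332 for CEP genes. Against that range the groups differed little. The ratio of the highest to the lowest of the 5 group means had a median of 1.25 over the 66 members and reached 2.24 for CENPM and 2.08 for KIFC2. The control mean was the lowest of the 5 for 22 members and the highest for 7, and the trex4039 mean was the highest for 24.

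**Figure D1:**
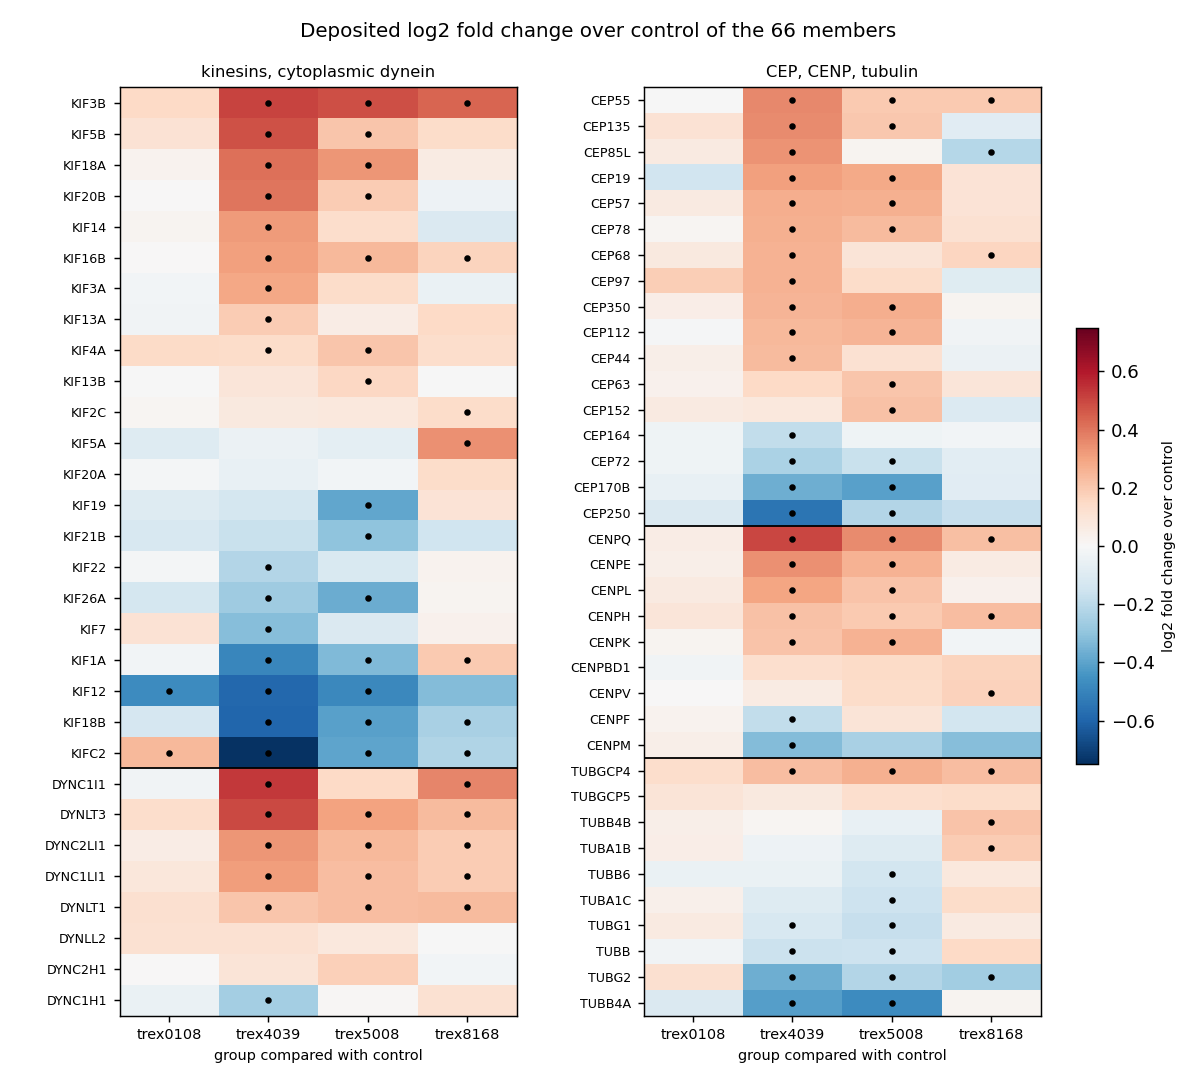
Log2 fold change over control in the authors' deposited table (colour, blue below 0 and red above) for each member (rows, by family) in the 4 comparisons (columns); a black dot marks an adjusted p under 0.05. The trex4039 and trex5008 columns hold 49 and 42 dots, the trex8168 column 22 and the trex0108 column 2.

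The trex0108 group barely differed from control in these genes. KIFC2 rose and KIF12 fell, and the other 64 members were not called. In bulk RNA, fewer cells of a kind, such as cells in mitosis, and less RNA per cell cannot be told apart. Of all listed rows, 5.65% were called higher and 0.249% lower in this comparison, and of the protein-coding rows 5.52% and 0.228%. The median log2 fold change of the members was 0.02, the same as over all listed rows.

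The trex4039 group differed most widely. There 31 members rose and 18 fell, where 37.1% of all rows tested were called higher and 33.7% lower, and 41.6% and 30.9% of the protein-coding rows. Of the CEP, CENP and dynein genes, 11 of 17, 5 of 9 and 5 of 8 were called higher and 4, 2 and 1 lower. Of the tubulins 1 of 10 was higher and 4 were lower, and of the kinesins 9 of 22 were higher and 7 lower. The median log2 fold change was 0.26 for CEP genes, 0.21 for CENP genes, 0.26 for dynein, 0.01 for kinesins and -0.07 for tubulins, against 0.03 over all listed rows. Relative to protein-coding rows of equal transcript GC content these medians were -0.03 for CEP genes, -0.02 for CENP genes, -0.0024 for dynein, 0.01 for kinesins and -0.04 for tubulins. The CEP, CENP and dynein medians thus lost their rise and turned sign, to small values.

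In trex5008 cells 26 of 65 members tested rose and 16 fell, against 29.8% of all rows called higher and 24.3% lower, and 32.4% and 24.6% of the protein-coding rows. By family, 9 CEP genes, 5 CENP genes, 4 dynein genes, 7 kinesins and 1 tubulin rose, while 3 CEP genes, 7 kinesins and 6 tubulins fell. No CENP or dynein gene was called lower. The median log2 fold change in trex5008 was 0.19 for CEP genes, 0.20 for CENP genes and 0.21 for dynein. It was 0.02 for kinesins and -0.15 for tubulins, against 0.02 over all listed rows. Relative to rows of equal GC content the medians were 0.0049, 0.03, 0.04, -0.05 and -0.03 in the same order. In trex8168 cells 18 members rose and 4 fell, where 14.6% of all rows were called higher and 6.45% lower, and 16.6% and 4.57% of the protein-coding rows. By family, 5 of 8 dynein genes, 3 of 10 tubulins, 3 of 9 CENP genes, 5 of 22 kinesins and 2 of 17 CEP genes rose there. Of the tubulins 1 fell, of the kinesins 2 and of the CEP genes 1. The median log2 fold change in trex8168 was 0.19 for dynein, 0.14 for tubulins, 0.06 for CENP genes, 0.05 for kinesins and -0.03 for CEP genes. Over all listed rows it was 0.04. Relative to rows of equal GC content the family medians were 0.10, 0.09, 0.01, 0.04 and -0.08 in the same order.

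**Figure D2:**
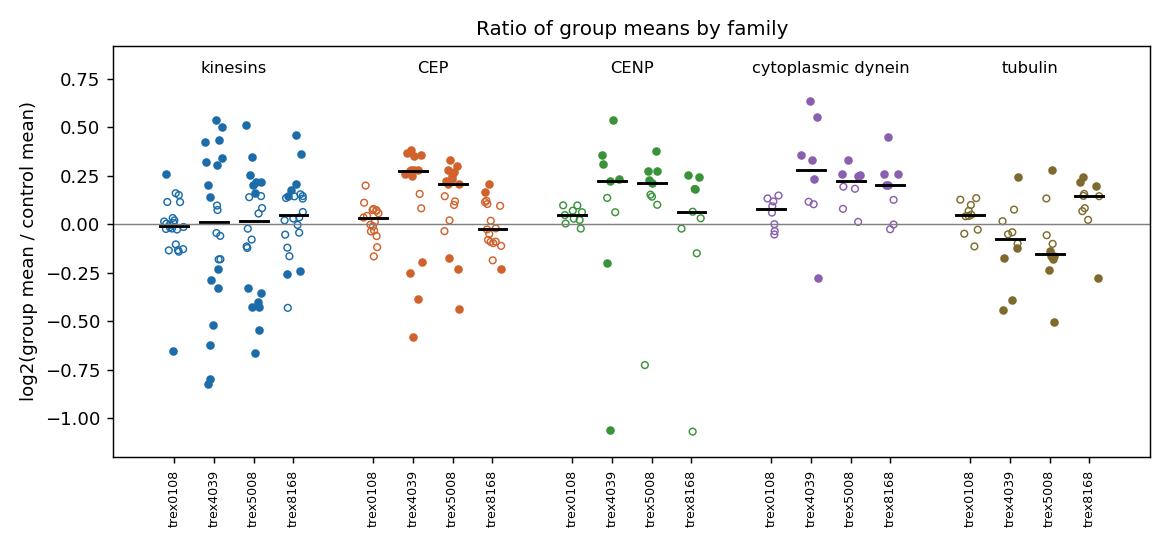
Log2 ratio of each group's mean to the control mean (y axis) for each member (points) by family and group (x axis); filled points had an adjusted p under 0.05 and the black bar is the family median. CEP medians stand at 0.27 in trex4039 (the median log2 fold change of -0.03 relative to rows of equal GC content has the other sign) and -0.03 in trex8168, and tubulin medians at -0.07 in trex4039 and 0.15 in trex8168.

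Across comparisons, 10 members were called higher in 3 of the 4: CENPH, CENPQ, CEP55, DYNC1LI1, DYNC2LI1, DYNLT1, DYNLT3, KIF16B, KIF3B and TUBGCP4. They make up 15.2% of the members, and 8.08% of all listed rows had that pattern. KIF12, KIF18B and TUBG2 were called lower in 3, which is 4.55% of the members and 3.58% of all listed rows. CEP85L, KIF1A and KIFC2 were called higher in at least 1 comparison and lower in another. CENPBD1, DYNC2H1, DYNLL2, KIF20A and TUBGCP5 were called in none at 0.05, 7.58% of the members and 14.2% of all listed rows.

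Transcript GC content moved with direction. Members had a median GC content of 47.5% (range 32.9% to 70.6%), close to the 47.9% of the 6111 protein-coding rows with a known value. Of 28 members under 45% GC, 23 rose and 1 fell in trex4039 cells, and 20 rose and 0 fell in trex5008 cells. Of 28 members at 50% GC or more, 0 rose and 17 fell in trex4039, and 1 rose and 16 fell in trex5008. Protein-coding rows showed the same lean: under 45% GC, 2012 of 2465 rose and 66 fell in trex4039, and at 50% or more 144 of 2789 rose and 1645 fell. Across the 66 members, Pearson's r between GC content and log2 fold change was -0.82 in trex4039 and -0.84 in trex5008, and across the 6111 rows -0.78 and -0.79. In trex0108 and trex8168 it was -0.40 and -0.20 over the members and -0.10 and -0.26 over the rows. Spearman's rho, which a few extreme rows affect less, was -0.43 over the members and -0.39 over the rows in trex0108, and -0.08 and -0.27 in trex8168. These describe genes measured in the same libraries, and genes are not independent replicates. The families themselves differ in GC content, with medians of 41.4% for CEP, 42.2% for CENP, 42.4% for dynein, 50.8% for kinesin and 55.1% for tubulin genes.

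**Figure D3:**
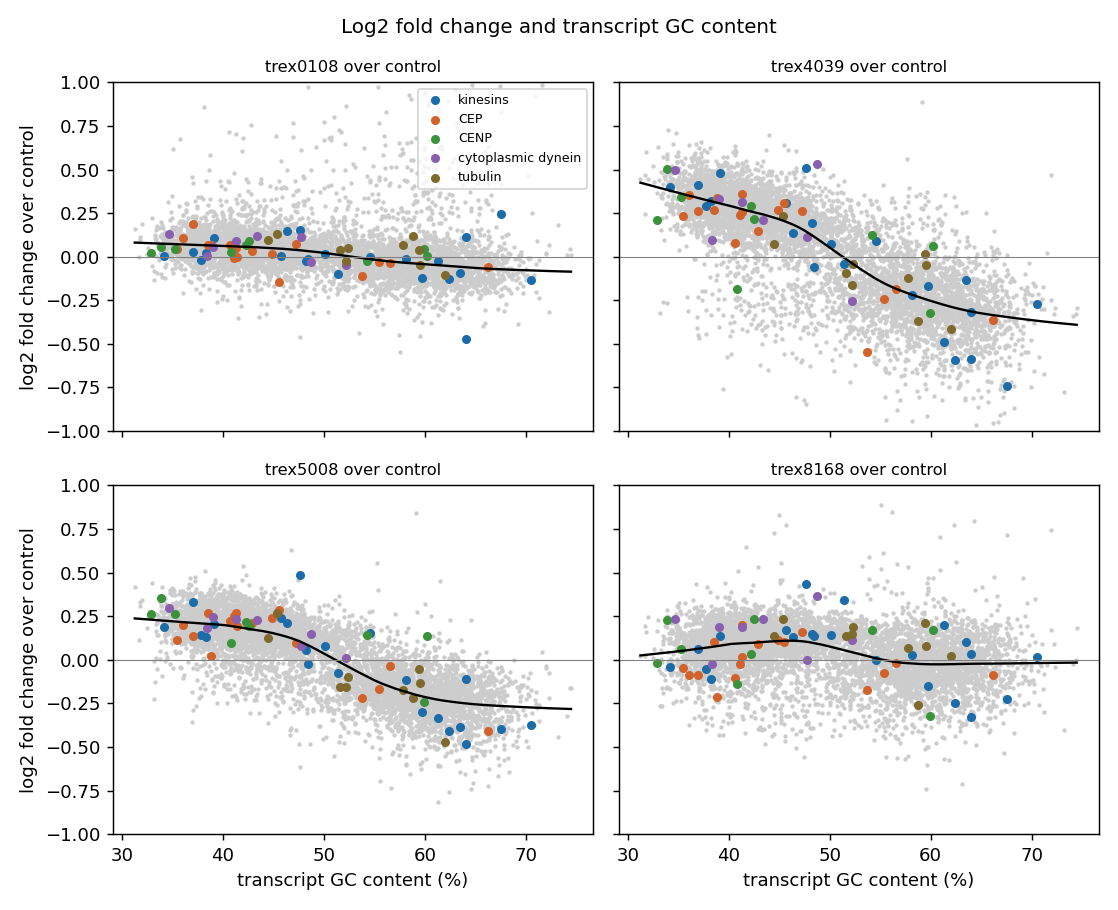
Log2 fold change over control (y axis, -1 to 1) against transcript GC content in percent (x axis) for the members (coloured by family) and the other protein-coding rows (grey), 1 panel per comparison; the line is the smoothed trend over all 6111 protein-coding rows. Outside the axis are 52 rows for trex0108, 4 for trex4039, 0 for trex5008 and 5 for trex8168; the line falls from left to right in trex4039 and trex5008.

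Each member was therefore also set against protein-coding rows of equal GC content, by subtracting the smoothed trend. In trex4039, 2 of the 31 higher members (KIF3B and DYNC1I1) and 6 of the 18 lower ones (KIFC2, KIF18B, CEP250, DYNC1H1, CENPF and TUBB) kept at least 0.5 of their log2 fold change, in the same direction. The sign alone was kept by 20 of the 31 and 16 of the 18. Of the 49 called members, 22 were then above and 27 below rows of equal GC content, which is 44.9% above, whereas 63.3% were higher as deposited. In trex5008, 2 of 26 higher (KIF3B and KIF13B) and 3 of 16 lower members (CEP250, TUBA1C and TUBB) kept that share. In trex8168, 14 of 18 higher and 4 of 4 lower members did. The shares over called protein-coding rows with a GC value were 264 of 2595 higher and 550 of 1797 lower in trex4039, 241 of 1940 and 319 of 1393 in trex5008, and 765 of 992 and 287 of 287 in trex8168. Whether GC content had a part in these differences was not tested.

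Among the 8 listed mitotic kinesins, 4 rose and 2 fell in trex4039, 3 rose and 1 fell in trex5008, and 1 rose and 1 fell in trex8168. That is 50% higher and 25% lower in trex4039, where 37.1% and 33.7% of all rows were. KIF18A had group means of 1537, 2028, 1909.5 and 1571 in trex0108, trex4039, trex5008 and trex8168, against 1503 in control. The KIF18A means of trex4039 and trex5008 stand apart above the other 3. Its log2 fold change in the authors' deposited table was 0.41 in trex4039 (adjusted p = 7.4e-11) and 0.33 in trex5008 (adjusted p = 7.64e-07).

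KIF18B had group means of 3429, 2445, 2798 and 3152 in the same 4 groups and 3764 in control, so every target group was below control. Log2 fold changes in the authors' deposited table were -0.59 in trex4039 (adjusted p = 4.54e-22), -0.41 in trex5008 (adjusted p = 2.32e-10) and -0.25 in trex8168 (adjusted p = 0.0011). Against rows of equal GC content KIF18A stood at 0.08 and 0.12 in trex4039 and trex5008, and KIF18B at -0.30 and -0.17. In the table (hg19) the KIF18B locus is chr17:43000621-43025144. That of KIF18A, chr11:27831748-28129733, is 3.40 times as long as the RefSeq gene, and what else it counts was not tested.

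KIF2C, which removes tubulin from microtubule ends, had group means of 5063, 5275, 5312 and 5544 in trex0108, trex4039, trex5008 and trex8168, against 5013 in control. It was called in trex8168 alone in the authors' deposited table (log2 fold change 0.14, adjusted p = 0.0394). KIF20B and KIF14, both used in cytokinesis, rose in trex4039 by 0.40 and 0.32 (log2) in the authors' deposited table, and KIF22, which pushes chromosome arms, fell by 0.22. KIF4A, a chromosome-bound motor, rose by 0.14 in trex4039 and 0.21 in trex5008 in the authors' deposited table.

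Of 14 listed transport and ciliary kinesins, 1 rose and 1 fell in trex0108, 5 rose and 5 fell in trex4039, 4 and 6 in trex5008, and 4 and 1 in trex8168. In trex4039 the share was 35.7% in each direction, near the 37.1% and 33.7% of all rows. KIF1A, the neuronal motor of synaptic vesicle precursors (hg19 chr2:241652774-241760820), had group means of 4039.1 in trex0108, 2866 in trex4039, 3217 in trex5008 and 4742 in trex8168, against 4107 in control. It thus stood below control in trex4039 and trex5008, above control in trex8168 and level with it in trex0108. In the authors' deposited table its log2 fold change was -0.49 in trex4039 (adjusted p = 4.43e-13), -0.33 in trex5008 (adjusted p = 3.52e-06), 0.20 in trex8168 (adjusted p = 0.0214) and -0.02 in trex0108 (adjusted p = 0.999). Against rows of equal GC content it stood at -0.21, -0.10 and 0.22 in trex4039, trex5008 and trex8168.

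KIF12, a kinesin studied as a modifier of polycystic kidney disease in mice (hg19 chr9:116844083-116870892), had a low level of 37.1 normalised counts per kilobase. Its group means were 72.5, 64.3, 71.8 and 84.5 in trex0108, trex4039, trex5008 and trex8168, against 113.9 in control, so all target groups lay below control. Log2 fold changes in the authors' deposited table were -0.47 in trex0108 (adjusted p = 0.0151), -0.59 in trex4039 (adjusted p = 4.93e-05), -0.48 in trex5008 (adjusted p = 0.00136) and -0.33 in trex8168 (adjusted p = 0.076). It was the single member called lower in trex0108. Against rows of equal GC content (KIF12 has 64.0%) it stood at -0.41, -0.27, -0.23 and -0.30 in the 4 groups. Since all comparisons use the same control libraries, a high control value would lower all 4 at once, and this cannot be told apart from an effect in each group. The locus is 3.50 times as long as the RefSeq gene.

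KIFC2, a kinesin with its motor at the C-terminal end, had the widest spread among kinesins: 1921 in trex0108, 922.6 in trex4039, 1193 in trex5008 and 1356 in trex8168, against 1604 in control. It was above control in trex0108 and below it in the other 3. In the authors' deposited table its log2 fold change was 0.24 in trex0108 (adjusted p = 0.0191), -0.74 in trex4039 (adjusted p = 3.96e-23), -0.40 in trex5008 (adjusted p = 4.84e-07) and -0.23 in trex8168 (adjusted p = 0.0169). Among all listed rows, 6 were likewise called higher in 1 comparison and lower in 3. Against rows of equal GC content KIFC2, at 67.6% GC, stood at 0.32, -0.40, -0.13 and -0.21.

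**Figure D4:**
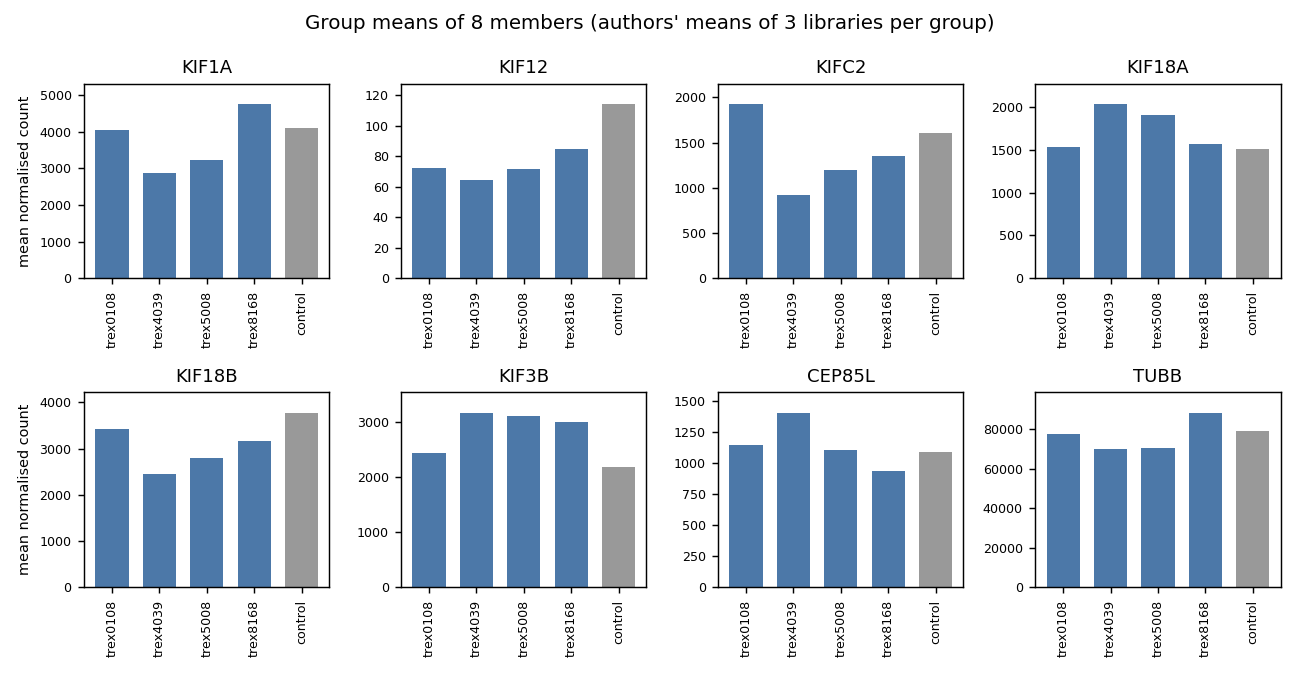
Authors' mean normalised count (y axis, from 0) of 8 members in the 4 target groups (blue) and control (grey), 3 libraries per group. KIF3B is higher in trex4039, trex5008 and trex8168 (2990 to 3151) than in control (2171), and KIF12 is below its control mean of 113.9 in every target group.

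KIF3B, a subunit of the motor of transport inside cilia, rose in 3 groups (hg19 chr20:30865451-30944566). Its means were 2426, 3151, 3098 and 2990 in trex0108, trex4039, trex5008 and trex8168, against 2171 in control. Log2 fold changes in the authors' deposited table were 0.51 in trex4039 (adjusted p = 1.07e-13), 0.48 in trex5008 (adjusted p = 8.64e-12) and 0.44 in trex8168 (adjusted p = 4.69e-09). The values relative to rows of equal GC content were 0.36, 0.38 and 0.33. KIF3A, its partner subunit, rose in trex4039 in the authors' deposited table by a log2 value of 0.29 (adjusted p = 6.95e-06) and stood at 0.14 and -0.05 in trex5008 and trex8168. KIFAP3, which joins the pair to cargo and is no member, rose in the authors' deposited table by 0.36, 0.35 and 0.21 in trex4039, trex5008 and trex8168.

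Both listed heavy chains of conventional kinesin behaved differently. KIF5B, used in all cells and highest per kilobase among the kinesins, had group means of 12968, 16958, 13921.5 and 13247 in trex0108, trex4039, trex5008 and trex8168, against 11977 in control. It rose by a log2 value of 0.48 in trex4039 (adjusted p = 5.37e-15) and 0.21 in trex5008 (adjusted p = 0.00195) in the authors' deposited table. KIF5A, the chain used mainly in neurons, had 1386, 1443, 1410 and 1913, against 1489 in control, and was called in trex8168 alone, where the authors' deposited table lists a log2 fold change of 0.34 (adjusted p = 6.39e-05). The remaining lower kinesins of trex4039 or trex5008 were KIF7, which regulates Hedgehog signalling at the cilium tip, KIF26A, KIF21B and KIF19, with log2 fold changes from -0.39 to -0.27 where called in the authors' deposited table. KIF16B, an endosome motor, rose in trex4039, trex5008 and trex8168 by 0.31, 0.24 and 0.17 in the authors' deposited table.

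CEP250, which holds paired centrioles together, was 1 of 4 CEP genes lower in trex4039, where 11 were higher. Its group means were 5995, 4347, 5546 and 5719 in trex0108, trex4039, trex5008 and trex8168, against 6505 in control, below control throughout. Its log2 fold change in the authors' deposited table was -0.55 in trex4039 (adjusted p = 3.88e-15), -0.22 in trex5008 (adjusted p = 0.00443) and -0.18 in trex8168 (adjusted p = 0.0544). CEP68, another protein of the centriole linker, was called higher, by 0.26 in trex4039 (adjusted p = 3.27e-05) and 0.16 in trex8168 (adjusted p = 0.0427) in the authors' deposited table.

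The 4 listed genes of centriole duplication rose or were not called. Called higher were 2 of the 4 in trex4039 and 3 in trex5008, where 37.1% and 29.8% of all rows were. CEP135, a cartwheel component, rose in trex4039 by 0.35 (adjusted p = 2.01e-08) and in trex5008 by 0.20 (adjusted p = 0.0032) in the authors' deposited table. CEP152, which recruits PLK4, and CEP63, its partner, were called in trex5008 alone, with 0.22 and 0.21 in the authors' deposited table. CEP97, a cap protein of the centriole, rose in trex4039 by 0.26 in the authors' deposited table. In trex8168 none of the 4 was called, with log2 fold changes from -0.10 to 0.09. The median of the 4 was 0.20 in trex4039 and 0.20 in trex5008. Relative to rows of equal GC content it was -0.09 and 0.005, and CEP135 stood at 0.0023 and -0.02.

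CEP85L was called in opposite directions. Its group means were 1145, 1399.5, 1107 and 930.4 in trex0108, trex4039, trex5008 and trex8168, against 1091 in control. Its log2 fold change in the authors' deposited table was 0.34 in trex4039 (adjusted p = 8.26e-06) and -0.21 in trex8168 (adjusted p = 0.0279). With the GC trend subtracted, CEP85L stood at 0.03 in trex4039 and -0.29 in trex8168. CEP55, which acts at the midbody when cells separate, rose in trex4039, trex5008 and trex8168 by 0.36, 0.19 and 0.20 in the authors' deposited table. CEP170B and CEP72, of the microtubule-binding and satellite proteins, fell in trex4039 by 0.36 and 0.24 and in trex5008 by 0.41 and 0.17 in the authors' deposited table. CEP72 had group means of 3099, 2661, 2808 and 2996 in trex0108, trex4039, trex5008 and trex8168, against 3168 in control.

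Of 5 listed genes of the inner kinetochore complex on centromeric chromatin, CENPQ, CENPL, CENPK and CENPH rose in both trex4039 and trex5008. CENPQ had group means of 1074, 1491, 1338 and 1217 in trex0108, trex4039, trex5008 and trex8168, against 1029 in control. Its log2 fold change in the authors' deposited table was 0.50 in trex4039 (adjusted p = 1.34e-12), 0.36 in trex5008 (adjusted p = 2.44e-06) and 0.23 in trex8168 (adjusted p = 0.0123). These 4 transcripts are AT-rich, and against rows of equal GC content CENPQ stood at 0.12, 0.13 and 0.18. In trex4039 the others then stood at -0.19 for CENPK, -0.04 for CENPH and 0.03 for CENPL, so CENPK and CENPH turned sign, and in trex5008 at 0.03, 0.02 and 0.03. The fifth, the row named CENPM, had means of 24.2, 10.9, 13.7 and 10.8, against 22.7 in control, and was called lower in trex4039 (log2 fold change -0.32, adjusted p = 0.0448, in the authors' deposited table). That locus covers 1781 bases, 0.0892 of the length of the RefSeq gene, and whether the row holds the gene's full transcript was not tested.

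CENPE and CENPF work at the outer kinetochore and were called in opposite directions in trex4039. CENPE, a kinesin motor by structure, had group means of 3328, 4120.4, 3895 and 3367 in trex0108, trex4039, trex5008 and trex8168, against 3219 in control. It rose by 0.34 in trex4039 (adjusted p = 1.32e-08) and by 0.26 in trex5008 (adjusted p = 3.26e-05) in the authors' deposited table. CENPF had 6203, 5291, 6518.5 and 5481, against 6079 in control, and fell by 0.19 in trex4039 in the authors' deposited table (adjusted p = 0.0256). Both are AT-rich, CENPE at 35.3% GC and CENPF at 40.8% GC. Against rows of equal GC content CENPE stood at -0.02 in trex4039 and 0.04 in trex5008. CENPF stood at -0.47 in trex4039, so both were then below such rows there.

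Of the 8 dynein genes, 5, 4 and 5 rose in trex4039, trex5008 and trex8168, and 1, 0 and 0 fell. DYNC1H1, the heavy chain that holds the motor, was the exception: its group means were 24901, 21338, 26051 and 28182 in trex0108, trex4039, trex5008 and trex8168, against 25824 in control, and it fell by 0.25 in trex4039 in the authors' deposited table (adjusted p = 0.0049). DYNC1I1, an intermediate chain used mainly in neurons, had 158.6, 252.9, 184.6 and 222.5, against 162.6 in control. For DYNC1I1, log2 fold changes in the authors' deposited table were 0.53 in trex4039 (adjusted p = 4.45e-06) and 0.37 in trex8168 (adjusted p = 0.00989). With the GC trend subtracted it stood at 0.43 and 0.28.

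Light chains DYNLT1 and DYNLT3, which bind cargo, rose in 3 groups each. Their loci are 3.83 and 5.98 times as long as the RefSeq genes. DYNLT3 had group means of 1294, 1711, 1469 and 1398 in trex0108, trex4039, trex5008 and trex8168, against 1167 in control. Its log2 fold change in the authors' deposited table was 0.50 in trex4039 (adjusted p = 5.34e-08), 0.30 in trex5008 (adjusted p = 0.0023) and 0.23 in trex8168 (adjusted p = 0.0467). DYNLT1 gave 0.21, 0.23 and 0.24 in the authors' deposited table, the last with an adjusted p of 0.0388. DYNLL2, a light chain shared with other complexes, had 5768, 5760.1, 5616 and 5311, against 5314 in control, and was not called. For ciliary dynein, DYNC2LI1 rose in 3 groups by 0.33, 0.24 and 0.19 in the authors' deposited table, while the ciliary heavy chain DYNC2H1 was not called, with values from -0.02 to 0.18.

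Of 6 alpha and beta tubulins, 2 fell in trex4039 and 4 in trex5008 with none higher, and 2 rose in trex8168 with none lower. The 33.3% lower in trex4039 is near the 33.7% of all rows, while the shares in trex5008 (66.7% lower) and trex8168 (33.3% higher) stand beside 24.3% and 14.6% of all rows. These 6 have a median GC content of 55.9%, and 1352 of 2789 protein-coding rows at 50% GC or more fell in trex5008. Their median log2 fold change was -0.15 in trex5008 and 0.14 in trex8168. Relative to rows of equal GC content it was -0.09 and 0.10. TUBB, the main beta tubulin of dividing cells, had group means of 77492, 70151, 70503 and 88067 in trex0108, trex4039, trex5008 and trex8168, against 78993 in control. In the authors' deposited table its log2 fold change was -0.16 in trex4039 (adjusted p = 0.0309), -0.16 in trex5008 (adjusted p = 0.0408) and 0.15 in trex8168 (adjusted p = 0.0968). TUBA1B, an alpha tubulin, had 60422, 56749, 54445 and 66997, against 58384 in control, and rose by 0.19 in trex8168 in the authors' deposited table (adjusted p = 0.0211). TUBB4B rose there too, by 0.21 (adjusted p = 0.00216, the authors' deposited table).

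TUBB4A, a beta tubulin of nervous tissue, had the lowest log2 fold changes of the family in trex4039 and trex5008. Its means were 2342, 1866, 1791 and 2576 in trex0108, trex4039, trex5008 and trex8168, against 2535 in control. Log2 fold changes in the authors' deposited table were -0.42 in trex4039 (adjusted p = 1.65e-08) and -0.47 in trex5008 (adjusted p = 5.82e-10). Against rows of equal GC content TUBB4A did not keep 0.5 of either fall. Alpha tubulin genes resemble each other closely in their coding parts, as do beta tubulin genes, and both have pseudogenes. Reads can therefore be split between genes of the same class. One such pseudogene, TUBBP1, had 177.3 in trex5008 against 222.8 in control, and was not called at 0.05.

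Of 4 listed genes of the gamma-tubulin complex, 1 rose and 2 fell in both trex4039 and trex5008, and TUBGCP5 was called in no comparison. Of all rows, 37.1% and 29.8% were called higher and 33.7% and 24.3% lower in these groups. Relative to rows of equal GC content the median of the 4 genes was -0.06 and -0.01. TUBG1 and TUBG2, the gamma tubulins, fell in trex4039 by 0.12 and 0.37 and in trex5008 by 0.17 and 0.22 in the authors' deposited table. TUBG2 had group means of 1902, 1327, 1479 and 1435 in trex0108, trex4039, trex5008 and trex8168, against 1742 in control, and its log2 fold change in trex8168 was -0.26 in the authors' deposited table (adjusted p = 0.00493). TUBGCP4, a ring subunit, rose by 0.23, 0.27 and 0.23 in trex4039, trex5008 and trex8168 in the authors' deposited table, with adjusted p of 6.17e-05, 6.6e-06 and 0.000522. Against rows of equal GC content, none of these changes in trex4039 and trex5008 kept 0.5 of its size. In trex8168 those of TUBG2 and TUBGCP4 did. The TUBG2 locus is 4.71 times as long as the RefSeq gene and overlaps PLEKHH3, which stood at -0.47, -0.43 and -0.02 in trex4039, trex5008 and trex8168.

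Partner genes of the same pathways, which the name rule leaves out, were counted in the same way. Their counts stand beside the shares of all rows called, which were 37.1% higher and 33.7% lower in trex4039, 29.8% and 24.3% in trex5008, and 14.6% and 6.45% in trex8168. With 4 to 13 genes a list, counts such as 3 and 4 of 11 or 6 and 6 of 13 in trex4039 lie near them. Of 8 listed genes of the outer kinetochore network that binds microtubules (of 11 named), 6 rose and 1 fell in trex4039, 6 rose in trex5008 and 5 in trex8168. NUF2 rose there by 0.42, 0.36 and 0.25, and NDC80 by 0.35, 0.35 and 0.22, in the authors' deposited table. The median log2 fold change of these 8 genes was 0.33, 0.24 and 0.18 in trex4039, trex5008 and trex8168. Relative to rows of equal GC content it was 0.03, 0.07 and 0.10. Among 7 listed checkpoint and mitotic kinase genes of 13, 4 rose and 1 fell in trex4039 and in trex5008, and 3 rose in trex8168. TTK, the kinase that starts the checkpoint, rose by 0.58, 0.41 and 0.30 in the authors' deposited table, and AURKB fell in trex4039 by 0.31 and in trex5008 by 0.20. The median of these 7 genes was 0.14 in trex4039 and 0.13 in trex5008. Relative to rows of equal GC content it was -0.01 and 0.05.

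Of 11 listed centriole and matrix genes, 3 rose and 4 fell in trex4039, 4 rose and 2 fell in trex5008, and 1 fell in trex8168. Of 4 listed dynactin and dynein regulators, 2 rose and 1 fell in both trex4039 and trex5008. Within that list, ACTR10 rose by 0.47 and ACTR1B fell by 0.49 in trex4039 in the authors' deposited table, at adjusted p of 2.6e-08 and 1.43e-10. Kinesin light chains and adaptors gave 2 higher and 2 lower of 4 in trex4039, 1 and 1 in trex5008, and 1 higher in trex8168. Augmin and gamma-tubulin partners gave 3 higher and 2 lower of 5 in trex4039, 2 and 1 in trex5008, and 1 higher in trex8168. The median log2 fold change of these 5 was 0.26 in trex4039, and -0.01 relative to rows of equal GC content.

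Of 13 listed microtubule-associated genes, 6 rose and 6 fell in trex4039, 3 rose and 5 fell in trex5008, 1 rose and 1 fell in trex8168, and 1, TPX2, rose in trex0108. Of 5 tubulin folding and modification genes, 3 fell in trex4039, and 1 rose and 3 fell in trex5008. HDAC6, a tubulin deacetylase, fell by 0.37 and 0.31 there, and TBCD, a tubulin cofactor, by 0.37 and 0.26, in the authors' deposited table. The median of these 5 genes was -0.31 in trex4039 and -0.26 in trex5008. Relative to rows of equal GC content it was -0.16 and -0.06. TBCC, another cofactor, rose in trex0108 by 0.26 in the authors' deposited table (adjusted p = 0.0159). Proliferation markers were mixed: of 5 listed, 2 rose and 1 fell in trex4039, 3 rose and 1 fell in trex5008, and 2 rose in trex8168, with CDK1 higher in trex4039 by 0.49 and MCM2 lower by 0.18 in the authors' deposited table.

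Whether a member's fold change differed between target groups was tested with a Wald test. Its standard errors were recovered from the deposited adjusted p and its rank, and p-values were adjusted by Benjamini-Hochberg over 10978 differences of all listed rows in 6 pairs of groups. The recovered errors are upper limits and exist only where the adjusted p was under 0.1, so rows compared had already stood out in both groups. Of 89 differences in 45 members, 16 (18%) were called, against 9.94% of all listed rows' differences. That setting leaves out the shared controls. With a covariance from them, 21 of 89 were called, against 2313 of 10978 over all listed rows, so the shares lay close together. KIFC2 gave 5 of the 16, led by trex0108 minus trex4039 at 0.99 on the log2 scale (standard error 0.103, adjusted p = 1.76e-19). KIF1A differed between trex4039 and trex8168 by -0.69 (adjusted p = 7.96e-12) and between trex5008 and trex8168 by -0.53 (adjusted p = 5.05e-07).

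Further differences, each trex4039 minus trex8168, were called for CEP85L (0.55, adjusted p = 3.88e-06), KIF18B (-0.35, adjusted p = 0.000653), KIF5B (0.34, adjusted p = 0.00142), CEP250 (-0.37, adjusted p = 0.00206), TUBB (-0.31, adjusted p = 0.0184) and CENPQ (0.28, adjusted p = 0.0445). KIF5B and CEP250 also differed between trex4039 and trex5008, by 0.27 and -0.33, and TUBB between trex5008 and trex8168, by -0.30. These tests used the fold changes as deposited, and differences with the GC trend subtracted were not tested. Against rows of equal GC content CENPQ stood at 0.12 in trex4039 and 0.18 in trex8168, in reversed order. CEP250 kept its order, at -0.45 and -0.20. KIF3B was not among those called, which does not show that the groups acted alike.

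**Figure D5:**
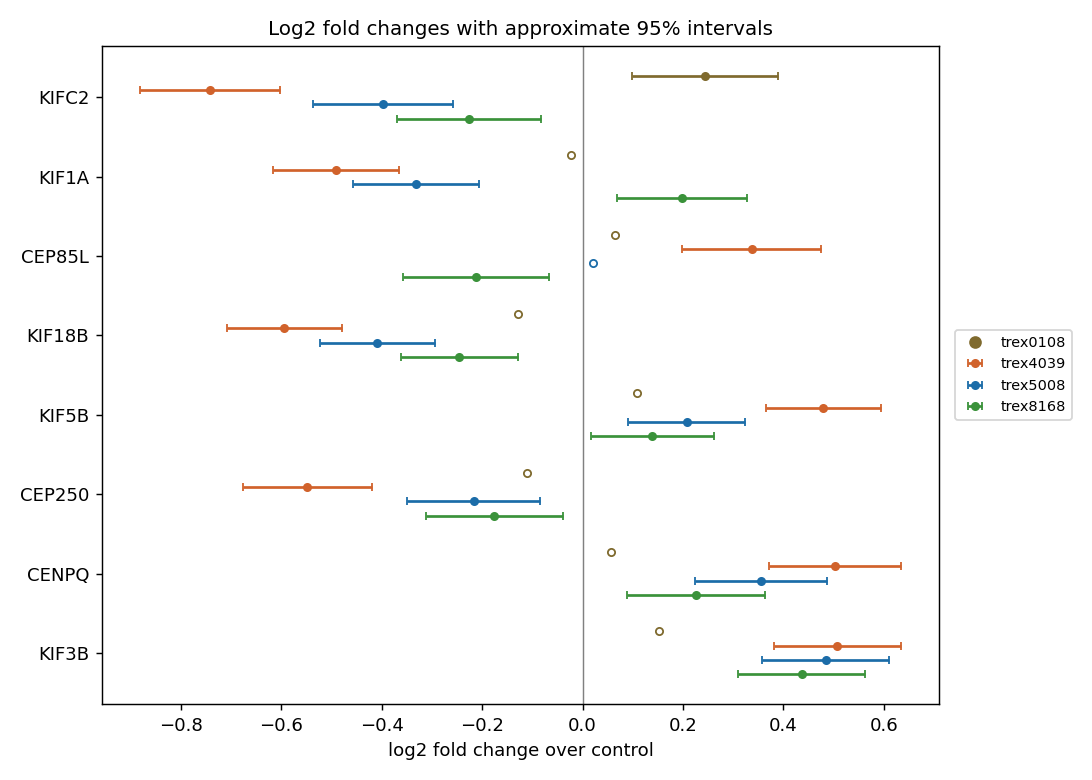
Log2 fold change over control (x axis) of 8 members in 4 groups, from the authors' deposited table, with approximate 95% intervals from the recovered standard errors (bars); open points had an adjusted p of 0.1 or more and carry no interval. KIFC2 and KIF1A lie on both sides of 0, while the 3 intervals of KIF3B overlap.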

How the data were processed

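PolyA RNA of 15 HEK293FT libraries, 3 in each of 5 groups, was measured. The submitters' processing notes name DESeq2 1.14.1, DESeq, STAR 2.5.1b, Bowtie2 2.2.1, Cufflinks and bedtools, and the builds hg19 and GRCh37; their roles and the strand setting of counting are not given in the sources used here. The signal values deposited by the authors are a mean normalised count for each group, used here without values per library, so depth is unknown, no SD is given, and a count test planned for values per library did not apply. The authors' deposited log2 fold changes set a target group over control and were smaller than the log2 ratio of means in every called member. The deposited p-value columns are adjusted p.

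Members and lists were chosen with earlier results of these data known. Named in full were KIF1A, KIF12, up to 4 highest and 4 lowest called members per comparison with an overall mean of at least 50, and the members with the highest overall means per family; other names were chosen after their values were seen. GC content and length came from the GENCODE 29 principal transcript (66 of 66 members, 6111 of 7447 protein-coding rows). The GC trend was a lowess fit with a span of 0.3 (statsmodels 0.14.6). Promoters came from RefSeq GRCh38.p14, with 52 of 66 members matched. Standard errors were obtained from the p-value that each adjusted p and rank allow, with a median of 0.066 to 0.107 per comparison, and differences were tested with scipy 1.17.1. These steps were tested on simulated data with independent errors in each comparison, all rows kept and a known number of tests. That check did not cover shared controls, the limit of 0.1 for listing or an unknown number of tests. P-values measure the spread between 3 libraries of 1 line.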

Additional observations from a re-analysis of the deposited data

Results flagged for a closer look

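KIFC2, KIF1A and CEP85L were the 3 members called in opposite directions, and their differences between those groups were also called. The test was a Wald test on recovered standard errors, with Benjamini-Hochberg adjustment over 10978 differences. It reuses the fold changes and errors by which these members were picked, so a call was close to fixed in advance and adds no separate support. The log2 fold change of KIFC2 over control in trex0108 exceeded that in trex4039 by 0.99, that in trex5008 by 0.64 (adjusted p = 2.7e-08) and that in trex8168 by 0.47 (adjusted p = 0.000176). For KIF1A the difference was -0.69 for trex4039 minus trex8168 and -0.53 for trex5008 minus trex8168. For CEP85L it was 0.55 for trex4039 minus trex8168. All use the same 3 control libraries and the fold changes as deposited, without the GC trend subtracted.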

How the results depend on the processing

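With the GC trend removed, the called members of trex4039 stood 22 above and 27 below rows of equal GC content, against 31 higher and 18 lower as deposited. The same change turned the sign of the trex4039 medians of CEP (-0.03), CENP (-0.02) and dynein genes (-0.0024), the trex5008 median of kinesins (-0.05), the trex0108 medians of CEP (-0.0079) and CENP genes (-0.01), and the uncalled KIF1A value in trex0108 (0.03). The turned trex4039 medians are smaller in size than the median standard error of 0.066. In trex5008 it moved the medians of CEP genes from 0.19 to 0.0049, CENP genes from 0.20 to 0.03, dynein from 0.21 to 0.04 and tubulins from -0.15 to -0.03. In trex8168 it moved that of dynein from 0.19 to 0.10. With an adjusted p under 0.01, 0 members were higher and 0 lower in trex0108, and 5 higher and 2 lower in trex8168. With an adjusted p under 0.1, 7 were lower in trex8168. Requiring a log2 ratio of means of at least 0.5 in size left 0 higher in trex0108, 5 higher and 6 lower in trex4039, 1 and 3 in trex5008, and 0 and 0 in trex8168. Without the 27 members whose locus overlaps another listed row, 8 were lower in trex4039, 16 were higher and 10 lower in trex5008, and 11 were higher in trex8168. Centring on the median of all rows, or keeping members with an overall mean of at least 50, moved no count by over 1.5 times. With the number of tests set to the highest locus number, 17 of 89 differences of members were called, against 1346 of 10978 over all listed rows. With a covariance from shared controls, 21 of 89 were called, against 2313 of 10978. Those last 2 alternatives and the one on overlapping loci were chosen after seeing the data. No paired analysis was possible because the columns are group means and carry no replicate numbers. Leaving out a replicate was not run for the same reason. Overlapping loci and the close similarity of tubulin genes within a class limit single values.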
